A study of Homo sapiens with 6 samples.

Results

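Ribosomal protein genes of the cytosol were examined in a count table of 57820 genes. Members were taken by name: protein-coding genes whose symbol is RPL or RPS followed by a number and an optional A, X or L, together with RPSA, RPLP0, RPLP1 and RPLP2. The rule found 85 genes, 53 of the large subunit and 32 of the small subunit, and it used no measured value. Of these, 81 had enough counts to be tested (50 large, 31 small), among 16396 tested genes in all.

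RNA came from Cal27, an epithelial line grown from a squamous carcinoma of the human tongue, in 3 groups of 2 biological replicates. CRNN cells carried a lentivirus that overexpresses cornulin, a protein of the differentiating squamous epithelium, and GFP cells carried the control vector with GFP. Both were transduced with 8 µg/ml polybrene and harvested 48 hours later, while the third group was untreated Cal27 cells, for which the labels give neither polybrene nor a harvest time. Transduction, polybrene and time therefore cannot be told apart in comparisons with untreated cells, and the labels name no promoter for the transgene and no clone.

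Each ribosome holds 1 copy of nearly every ribosomal protein, bound to the ribosomal RNA of its large or small subunit, so the cell makes these proteins in near-equal amounts. Their messenger RNAs are among the most abundant of a growing cell. Most begin with a C and a run of pyrimidines, the terminal oligopyrimidine (TOP) motif, through which the growth-signalling kinase mTOR and the RNA-binding protein LARP1 control their translation and stability.

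The start of the transcript was read for 68 of the 85 members from RefSeq promoter windows (GRCh38.p14). A C at an annotated start followed by at least 4 C or T was present in 47 of the 68 genes (69.1%), against 5.14% of 27305 genes in the same table. Windows are shown first for RPL26, RPL31, RPL39, RPL35A and RPL14, and for RPL28 and RPS16, whose values went the other way. The first 5 had some of the smallest unadjusted p-values among members in the comparisons with GFP, and none passed after adjustment. Each window gives 15 bases before the annotated start and 20 bases from it, with the C and its pyrimidine run in capitals.
RPL26 (chr17:8383174-8383208, minus strand): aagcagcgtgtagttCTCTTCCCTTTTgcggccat
RPL31 (chr2:101002274-101002308, plus strand): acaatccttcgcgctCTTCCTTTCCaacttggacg
RPL39 (chrX:119791611-119791645, minus strand): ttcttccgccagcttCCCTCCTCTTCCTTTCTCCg
RPL35A (chr3:197950175-197950209, plus strand): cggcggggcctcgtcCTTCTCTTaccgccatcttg
RPL14 (chr3:40457324-40457358, plus strand): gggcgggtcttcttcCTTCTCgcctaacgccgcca
RPL28 (chr19:55385917-55385951, plus strand): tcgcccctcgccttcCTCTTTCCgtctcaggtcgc
RPS16 (chr19:39435930-39435964, minus strand): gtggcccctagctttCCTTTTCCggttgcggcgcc
All 7 have a TOP start, both the first 5, which were lower in GFP than in untreated cells, and RPL28 and RPS16, which were not. The pyrimidine run was 19 bases long in RPL39, 12 in RPL26, 10 in RPL31, 8 in RPL35A, RPL28 and RPS16, and 6 in RPL14.

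CCGGAAG, the core that ETS factors such as GABP bind, occurred on either strand of the 300-base window in 24 of the 68 genes (35.3%, against 12.2% of all genes). AAGATGGC, a form of the YY1 site, occurred on either strand in 7 (10.3%, against 3.52%), and TATAAA occurred on the sense strand before the start in 4 (5.88%, against 8.38%). These are matches of letters within the window and no measure of binding.

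The 6 libraries held 11817105 to 28041227 counts, GFP replicate 2 the fewest and untreated replicate 1 the most, and members took between 4.38% and 5.999% of them. CRNN itself had 21256 and 23062 counts in the CRNN cells, 59 and 32 in the GFP cells, and 92 and 52 in the untreated pair, which matches the labels. All 12 epithelial markers had counts in every library, with summed levels of 6284 to 8213 CPM (counts scaled by library size and edgeR's TMM factors). The 7 fibroblast markers summed to 3.96 to 9.34 CPM and the 6 immune markers to 5.92 to 9.47. Most of the immune sum was CD14, at 4.23 to 8.34 CPM, and PTPRC and LYZ also had counts in every library. CD68 was at 0 counts in the GFP and untreated libraries. The 4 endothelial markers with a value summed to 8.15 to 14.05 CPM outside untreated replicate 1. Untreated replicate 1 stood apart: the endothelial markers summed to 53.0 CPM there, nearly all from CDH5, KRT17 was at 1771 CPM against 67.6 to 182 in the other libraries, and MYC, a driver of ribosome production, at 595 CPM against 103 to 148.

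The members' common level differed between libraries of the same group. Relative to each gene's own mean over the 6 libraries, the median member was 0.32 higher on the log2 scale in untreated replicate 1 and 0.07 in untreated replicate 2, 0.15 in CRNN replicate 2 and -0.11 in CRNN replicate 1, and -0.05 in GFP replicate 1 and -0.37 in GFP replicate 2. The median of all tested genes lay between 0.00023 and 0.018 in the same libraries. Untreated replicate 1 was the highest library for 63 of the 81 members and GFP replicate 2 the lowest for 59, the libraries with the most and the fewest counts, and the part of depth in this was not tested. In bulk libraries, a difference in RNA per cell cannot be told apart from a difference in the cells sampled.

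**Figure D1:**
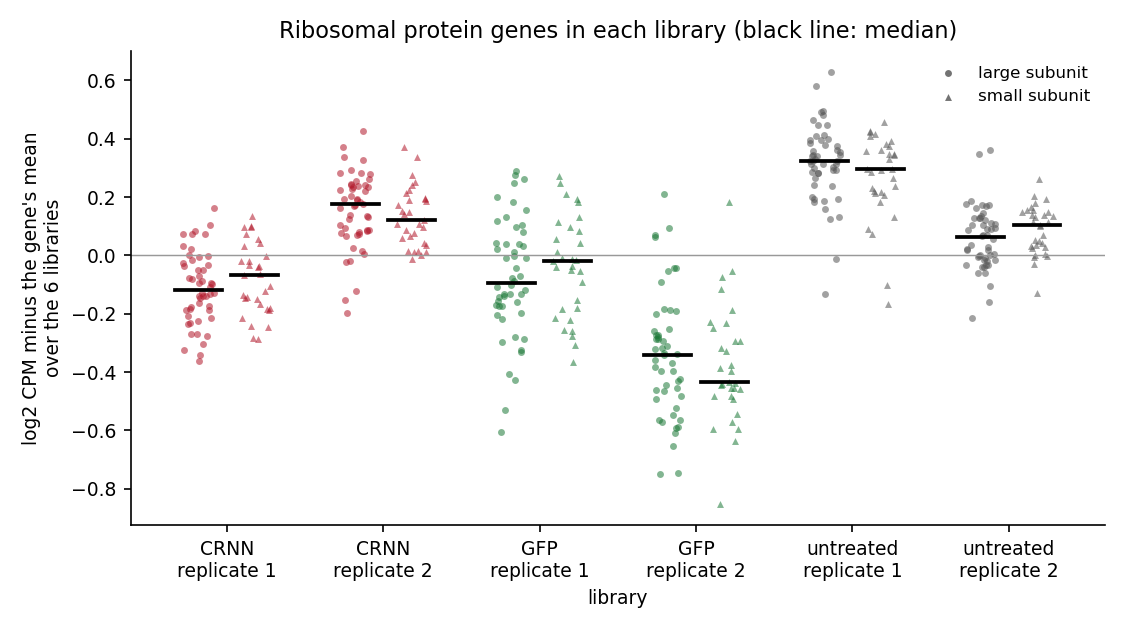
Each point is 1 of 81 ribosomal protein genes (circles large subunit, triangles small), plotted by library as log2 CPM minus the gene's mean over the 6 libraries, with the median as a black line. Points of untreated replicate 1 sit mostly above 0 and those of GFP replicate 2 mostly below, with medians of 0.32 and -0.37 over both subunits.

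The summed levels of the 2 subunits stood in a ratio of 1.65 to 1.75 in all 6 libraries. Summed CPM of large-subunit genes was 30190 and 36160 in CRNN replicates 1 and 2, 32520 and 25930 in GFP, and 40850 and 34300 in the untreated pair. For small-subunit genes the sums were 17670 and 20620, 19100 and 15370, and 23400 and 20790. The ratio of large to small sums was 1.73 ± 0.0318 (SD, n = 2) in CRNN, 1.69 ± 0.0113 (SD, n = 2) in GFP and 1.70 ± 0.0679 (SD, n = 2) in untreated cells, so the group means differed by less than the spread of the untreated pair.

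Among the 3 comparisons, GFP against untreated cells gave the members' median furthest from 0. In GFP against untreated cells, 79 of 81 members had a negative log2 fold change, with a median of -0.42 (quartiles -0.48 and -0.30), against -0.01 over all tested genes. By edgeR's quasi-likelihood test with Benjamini-Hochberg adjustment over all tested genes, no member passed the adjusted p threshold of 0.05, the smallest adjusted p being 0.711, and no gene of the table did either (0%). At an unadjusted p under 0.05 there was 1 member, RPL26, against 6.93% of all tested genes. DESeq2 called 29 genes and limma-voom 0 in this comparison, none of them a member.

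Both GFP libraries were below both untreated libraries for 51 of the 81 members (63.0%), against 15.5% of all tested genes, and both were above for 1 member, RPL28, against 16.2%. The 51 comprised 31 of 50 large-subunit and 20 of 31 small-subunit genes. The median depended on both groups' outlying libraries: it was -0.28 without GFP replicate 2, -0.29 without untreated replicate 1, -0.56 without GFP replicate 1 and -0.54 without untreated replicate 2. Without GFP replicate 2, the remaining GFP library was below both untreated libraries for 52 members (64.2%), against 35.2% of all tested genes. Without untreated replicate 1, both GFP libraries were below the remaining untreated library for 52 members as well, against 27.4% of all tested genes. The count was 78 (96.3%) without GFP replicate 1, against 34.9%, 72 (88.9%) without untreated replicate 2, against 35.7%, and 57 (70.4%) with library totals alone, against 12.5%.

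RPL26 (ENSG00000161970.8; chromosome 17, 8377516 to 8383213, minus strand; GRCh38 by GENCODE 44, as for the positions that follow), a large-subunit protein at the rim of the tunnel through which the new chain leaves, was at 75.1 and 103 CPM in CRNN replicates 1 and 2, 65.4 and 52.9 in GFP, and 123 and 78.0 in the untreated pair. The GFP libraries were the lowest of the 6 and did not overlap with either other group. Its log2 fold change in GFP against untreated was -0.77 (SE 0.32), a fold of 0.588, with an unadjusted p of 0.0398 and an adjusted p of 0.711 (edgeR). Exons of a second annotated gene on the same strand, ENSG00000263809, cover 65.3% of RPL26's exon sequence. That gene's own level was at most 0.718 CPM in any library. How reads in the shared exons were counted is not given in the sources used here, so the level of RPL26 is uncertain.

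RPL31 (ENSG00000071082.6; chromosome 2, 101002229 to 101024032, plus strand), also at the tunnel rim, had 414 and 587 CPM in CRNN, 439 and 322 in GFP, and 724 and 514 in the untreated pair. GFP was below untreated in every library and overlapped with CRNN. The log2 fold change of GFP against untreated was -0.70 (SE 0.33).

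RPL39 (ENSG00000198918.7; chromosome X, 119786504 to 119791630, minus strand), a small protein that lines the tunnel, had 194 and 231 CPM in CRNN, 168 and 109 in GFP, and 232 and 196 in the untreated pair. Both GFP libraries were below the other 4, while CRNN and untreated cells overlapped. Its log2 fold changes were -0.63 (SE 0.30) for GFP against untreated, 0.61 (SE 0.30) for CRNN against GFP and -0.01 (SE 0.30) for CRNN against untreated, none passing (edgeR, adjusted p = 0.712, 0.999 and 0.999).

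RPL35A, mutated in some families with Diamond-Blackfan anemia, an inherited failure of red cell production, had 512 and 663 CPM in CRNN, 490 and 421 in GFP, and 722 and 638 in the untreated pair. Both GFP libraries were again the lowest. Its log2 fold change of GFP against untreated was -0.58 (SE 0.28).

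RPL28 and RPS16 were the 2 members with a positive value. RPL28 (ENSG00000108107.8; chromosome 19, 55385932 to 55403250, plus strand), a eukaryote-specific protein of the large subunit, had 356 and 357 CPM in CRNN, 466 and 406 in GFP, and 385 and 372 in the untreated pair, so that the GFP libraries were the highest of the 6. Its log2 fold change was 0.20 (SE 0.26) in GFP against untreated and -0.29 (SE 0.26) in CRNN against GFP, neither passing (edgeR, adjusted p = 0.851 and 0.999). RPS16 (ENSG00000105193.4; chromosome 19, 39433137 to 39435949, minus strand), whose tail reaches the decoding region of the small subunit, had 325 and 382 CPM in CRNN, 380 and 437 in GFP, and 446 and 352 in the untreated pair, where the groups overlapped, and its log2 fold change of 0.03 (SE 0.28) was negative without GFP replicate 2 (-0.09) or untreated replicate 2 (-0.14).

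**Figure D2:**
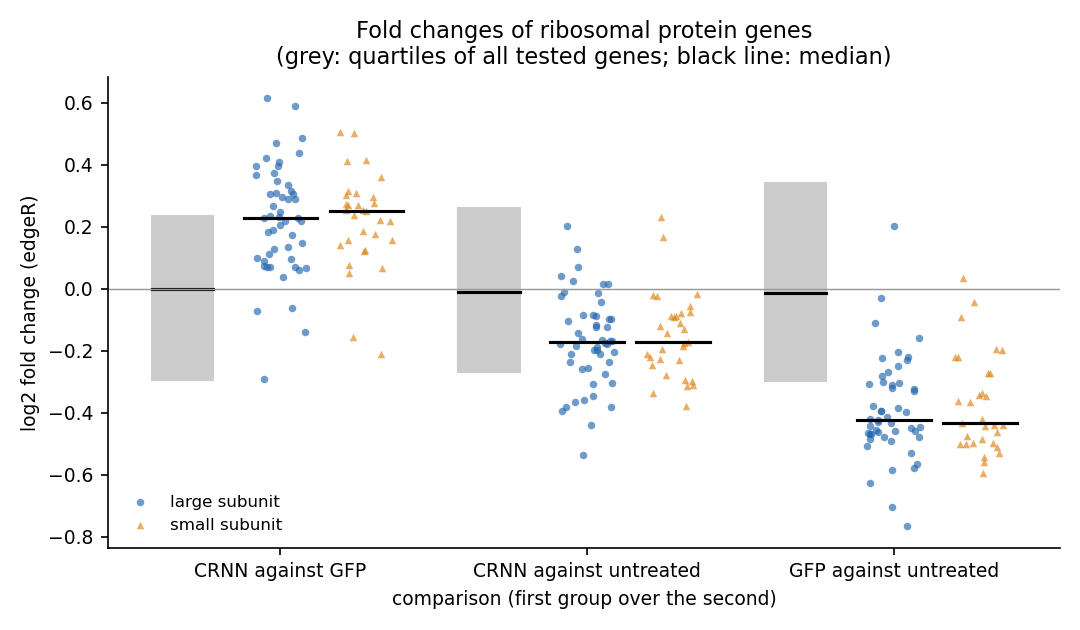
Log2 fold changes of the 81 tested members by comparison and subunit (points; black line, median), beside the quartiles and median of all 16396 tested genes (grey box). Members center on -0.42 in GFP against untreated, 0.23 in CRNN against GFP and -0.17 in CRNN against untreated, while all genes center close to 0.

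On the median, CRNN cells lay between the other groups. In CRNN against GFP, 75 of 81 members were higher in CRNN, at a median log2 fold change of 0.23 (quartiles 0.12 and 0.31) against -0.00171 over all tested genes. None passed by edgeR with Benjamini-Hochberg adjustment, the smallest adjusted p being 0.999, whereas 3 genes of the table did (0.0183%). No member had an unadjusted p under 0.05, against 4.39% of all tested genes, and DESeq2 and limma-voom called 21 and 3 genes with no member among them. Both CRNN libraries were above both GFP libraries for 26 members (32.1%), against 19.4% of all tested genes, and below for 1, RPL28, against 18.7%. The comparison shares its GFP libraries with the one above, and CRNN against untreated shares libraries with both, so the 3 are not independent.

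Which library was used moved this median from 0.11 to 0.45. It was 0.11 without CRNN replicate 2, 0.12 without GFP replicate 2, 0.37 without CRNN replicate 1 and 0.45 without GFP replicate 1. The non-overlapping count was 61 of 81 (75.3%) without CRNN replicate 1, against 30.6% of all tested genes, and 65 (80.2%) without GFP replicate 1, against 40.4%. It was 27 (33.3%) without CRNN replicate 2, against 26.3%, and 34 (42.0%) without GFP replicate 2, against 43.7%, so that without GFP replicate 2 the members' share was near that of all genes. With library totals alone in place of TMM scaling it was 16 (19.8%), against 14.4%.

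RPL14 (ENSG00000188846.9; chromosome 3, 40457292 to 40468587, plus strand) had 426 and 493 CPM in CRNN, 289 and 367 in GFP, and 568 and 414 in the untreated pair. CRNN did not overlap with GFP, and its log2 fold change over GFP was 0.49 (SE 0.29; edgeR, adjusted p = 0.999). RPS27L, a copy of RPS27 known as a target of p53, was scarce, with 11.7 and 14.4 CPM in CRNN, 8.93 and 9.42 in GFP, and 9.85 and 13.3 in the untreated pair. Its CRNN libraries were above its GFP libraries, with a log2 fold change of 0.50 (SE 0.29), and overlapped with untreated cells. Besides RPL28 and RPS16, the smallest p-values among the members with negative values belonged to RPS2 and RPL11. RPS2, at the site where messenger RNA enters, had 1714 and 2108 CPM in CRNN and 2237 and 2016 in GFP, which overlapped (log2 fold change -0.15, SE 0.28; 0.02 without CRNN replicate 1).

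In CRNN against untreated cells, 72 of 81 members had a negative log2 fold change, with a median of -0.17 (quartiles -0.25 and -0.08) against -0.01 over all tested genes. No member passed (edgeR, smallest adjusted p = 0.989) and none had an unadjusted p under 0.05, against 1 gene called in all (0.0061%) and 4.48% of tested genes at an unadjusted p under 0.05. DESeq2 called 7 genes and limma-voom 1, again with no member. Both CRNN libraries were below both untreated libraries for 22 members (27.2%), against 18.4% of all tested genes, and above for 2 (2.47%), RPS26 and RPL39L, against 18.7%. The median was -0.03 without CRNN replicate 1 and also -0.03 without untreated replicate 1. The non-overlapping count was 62 (76.5%) without CRNN replicate 2, against 30.3% of all tested genes, and 71 (87.7%) without untreated replicate 2, against 41.1%. It was 23 (28.4%) without CRNN replicate 1, against 30.3%, and 24 (29.6%) without untreated replicate 1, against 34.6%, which left the members' share near or below that of all genes. With library totals alone it was 20 (24.7%), against 17.7%.

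RPL11 and RPL5 carry the 5S ribosomal RNA into the large subunit and, when free, bind the p53 regulator MDM2. RPL11 (ENSG00000142676.8; chromosome 1, 23691742 to 23696835, plus strand) had 525 and 571 CPM in CRNN, 473 and 735 in GFP, and 774 and 816 in the untreated pair. The CRNN libraries were below the untreated pair, with a log2 fold change of -0.54 (SE 0.30; edgeR, adjusted p = 0.989), and the GFP libraries were on either side of CRNN. RPL5 had 569 and 724 CPM in CRNN, 566 and 662 in GFP, and 906 and 751 in the untreated pair, where untreated cells were above both other groups. RPL5 had log2 fold changes of -0.36 (SE 0.28) in CRNN and -0.43 (SE 0.29) in GFP against untreated.

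Further low values in CRNN against untreated belonged to RPL3, near the catalytic center of the large subunit, RPL17 and RPS6. RPL3 had 708 and 874 CPM in CRNN, 822 and 830 in GFP, and 1176 and 971 in the untreated pair, with CRNN below untreated at a log2 fold change of -0.44 (SE 0.28). RPS6, the small-subunit protein phosphorylated by S6 kinase, had 1130 and 1299 CPM in CRNN, 1103 and 1130 in GFP, and 1715 and 1443 in the untreated pair, with CRNN at a log2 fold change of -0.38 (SE 0.28). Both transduced groups were below the untreated pair for RPS6.

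RPS26 and RPL39L went the other way. RPS26, at the exit of the messenger RNA channel and also a Diamond-Blackfan anemia gene, had 309 and 329 CPM in CRNN, 320 and 208 in GFP, and 263 and 280 in the untreated pair. CRNN was above untreated at a log2 fold change of 0.23 (SE 0.29; edgeR, adjusted p = 0.989), and GFP overlapped with both. RPL23A, which binds the signal recognition particle at the tunnel rim, had 201 and 214 CPM in CRNN and 219 and 161 in untreated cells, which overlapped, and its log2 fold change of 0.13 (SE 0.31) was -0.07 without untreated replicate 2.

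**Figure D3:**
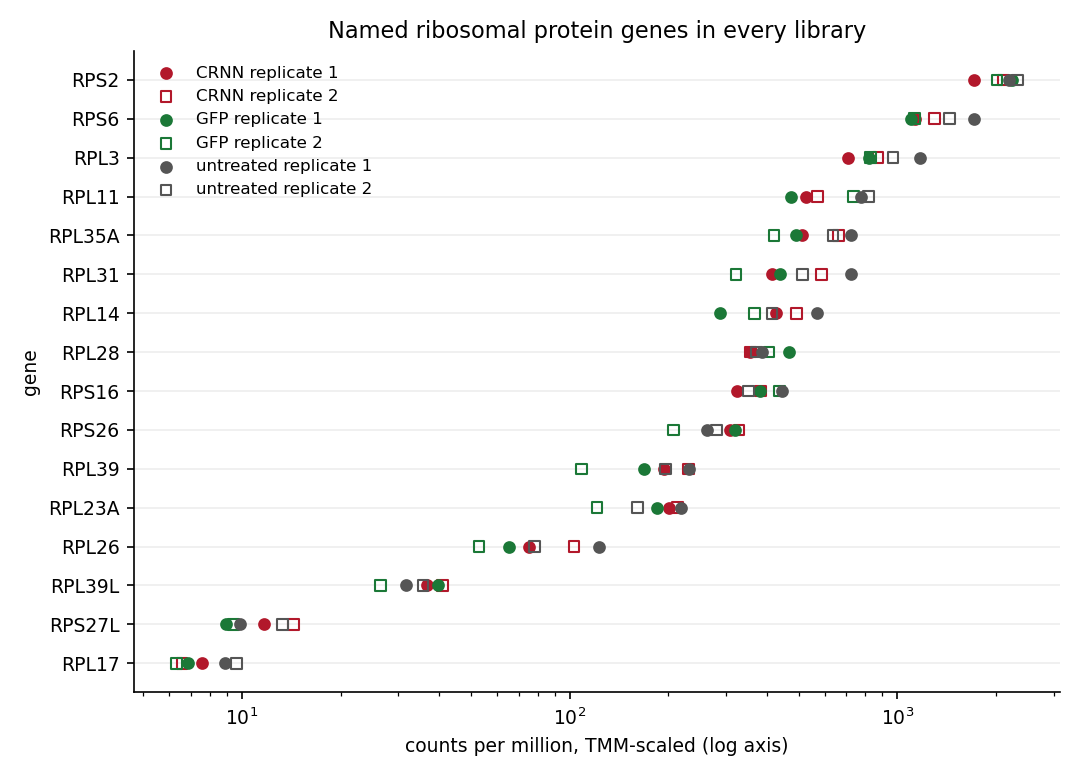
CPM of the 16 named members in each library on a log axis (filled circles replicate 1, open squares replicate 2; red CRNN, green GFP, grey untreated). GFP replicate 2 is the lowest library for RPL26, RPL31, RPL39 and RPL35A, and the GFP libraries are the highest for RPL28.

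Members were also grouped by their place in the ribosome, with groups drawn up after values had been seen, so their counts are a description. The 9 genes of the exit tunnel and its rim had medians of -0.49 in GFP against untreated and 0.35 in CRNN against GFP. GFP was below untreated without overlap for 8 of the 9, against 63.0% of all tested members and 15.5% of all tested genes. The 3 genes of the small subunit's beak, RPS10, RPS12 and RPS27A, had -0.50 and 0.27. Levels of RPS10, and of RPL17 and RPL26 in the tunnel group, are uncertain, because other genes' exons overlap theirs. RPL17's own log2 fold change in GFP against untreated was -0.49. With 1 library left out, the medians in GFP against untreated ranged from -0.61 to -0.37 for the tunnel and from -0.60 to -0.37 for the beak, and those in CRNN against GFP from 0.18 to 0.59 and from 0.23 to 0.53. Of the beak genes, RPS12 was at 655 and 731 CPM in CRNN, 597 and 484 in GFP, and 810 and 764 in the untreated pair, 3 groups without overlap.

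Smaller differences were found at the stalk and around messenger RNA. RPLP0, RPLP1, RPLP2 and RPL12, which form the stalk that recruits elongation factors and its base, had medians of -0.23 in GFP against untreated and 0.16 in CRNN against GFP. RPLP0 had 1690 and 1994 CPM in CRNN, 2147 and 1358 in GFP, and 2149 and 2019 in the untreated pair, with GFP reaching from the lowest to near the highest level. RPLP1 had 810 and 894, 836 and 673, and 891 and 795 CPM in the same order, and RPLP2 686 and 678, 699 and 465, and 730 and 612, so that the groups overlapped for both against GFP. The 5 genes of the decoding site and messenger RNA entry had -0.20 and 0.07, and the 4 genes of its exit and platform, RPSA among them, -0.25 and 0.19. RPSA, which is also known as a laminin receptor, had 1148 and 1381 CPM in CRNN, 1471 and 928 in GFP, and 1354 and 1440 in the untreated pair.

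The stalk, decoding and exit groups differed between the GFP libraries. For the stalk and the decoding site the median deviations were 0.09 and 0.10 in GFP replicate 1 against -0.36 and -0.39 in GFP replicate 2, and without GFP replicate 2 their medians in GFP against untreated were -0.01 and -0.04, and that of the exit and platform -0.01. In CRNN against GFP the medians without GFP replicate 2 were 0.02 for the stalk, and, with the sign turned, -0.10 for the decoding site and -0.06 for the exit and platform. For the exit tunnel of the large subunit the median in GFP against untreated was -0.45 without GFP replicate 2 and -0.61 without GFP replicate 1. The 8 tested Diamond-Blackfan anemia genes of the list were all negative in GFP against untreated (median -0.41), and 7 were positive in CRNN against GFP (median 0.22, and 0.06 to 0.38 with 1 library left out).

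GC content went with the members' levels within libraries. Over the 81 members, Spearman's rho was taken between GC of the gene's longest transcript and the deviation of the library. It was 0.48 and -0.21 in GFP replicates 1 and 2, and -0.37 and -0.18 in untreated replicates 1 and 2. In CRNN replicates 1 and 2 it was 0.23 and -0.38. Over 11532 genes of the table the GFP values were 0.63 and -0.38. Points of a library share its RNA, depth and preparation, so these are descriptions. After a correction of each library for GC and median transcript length, the members' medians were -0.39 in GFP against untreated, 0.21 in CRNN against GFP and -0.19 in CRNN against untreated, with no member called.

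Members with and without a TOP start were compared by their medians. The 46 tested members with a TOP start had a median of -0.42 in GFP against untreated and 0.24 in CRNN against GFP. The 20 tested members whose windows lack it at the annotated start had -0.44 and 0.21. Some of these, RPL3 and RPL4 among them, have such a run nearby. A C followed by at least 4 C or T lay within 10 bases of a start in 59 of the 68 genes (86.8%, against 38.4% of all genes). The split therefore goes by the annotated base only. Without GFP replicate 2 the medians with and without a TOP start were -0.25 and -0.40 in GFP against untreated, and 0.11 and 0.16 in CRNN against GFP. In CRNN against untreated the medians were -0.18 and -0.17, and no test of the difference was made.

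Levels were very unequal between members. Per kilobase of merged exons, the highest means over the 6 libraries were 1054 CPM per kb for RPS12, 1001 for RPL7A, 880 for RPS2, 790 for RPL35 and 618 for RPL8. Per kilobase of the median coding transcript, which is shorter, RPL35 (2682), RPL12 (2627), RPS2 (2558), RPL7A (2527) and RPLP0 (2236) led, so RPS2, RPL7A and RPL35 were in the first 5 by both lengths and the order depended on the length used. RPL7A, the most abundant before division by length, had 2056 and 2240 CPM in CRNN, 2407 and 1686 in GFP, and 2738 and 2321 in the untreated pair.

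RPS29, a zinc-binding protein of the small subunit, had the widest range of its subunit over the 6 libraries, 1.27 on the log2 scale, with 242 and 310 CPM in CRNN, 253 and 136 in GFP, and 329 and 258 in the untreated pair. GFP replicate 2 alone was far below the rest. RPL26 had the widest range of the large subunit (1.22), and RPL8, near the catalytic center, the narrowest of all tested members (0.385), at 1162 to 1518 CPM.

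Several members were scarce or absent where genes overlap. RPL36A was at 0 counts in every library, which allows at most 0.115 to 0.239 CPM for counting error alone. Other genes' exons on the same strand cover 43.8% of RPL36A's exon sequence. RPL17, with 7.52 and 6.55 CPM in CRNN, 6.86 and 6.31 in GFP, and 8.90 and 9.61 in the untreated pair, is covered to 96.9% by the readthrough gene RPL17-C18orf32, and RPS10, at 6.31 to 10.0 CPM, to 84.0% by RPS10-NUDT3. These 2 readthrough genes and RPL36A-HNRNPH2 were at 0 counts in every library. How reads in shared exons were counted is not given in the sources used here, so the levels of these members are uncertain.

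Some members have a copy of similar sequence among the members. Of the coding bases, 94.8% were identical between RPL39 and RPL39L, 89.9% between RPL36A and RPL36AL, 89.3% between RPL10 and RPL10L, 84.1% between RPL26 and RPL26L1, 77.8% between RPS27 and RPS27L, 75.2% between RPL3 and RPL3L, 65.4% between RPL22 and RPL22L1 and 55.4% between RPL7 and RPL7L1. How reads that match both copies were counted is not given in the sources used here, so the levels of the closest pairs are uncertain. The starts of some pairs are shown because they differ, with capitals for a TOP run where there is one and otherwise for the start base, or the short run at it.
RPL22 (chr1:6199576-6199610, minus strand): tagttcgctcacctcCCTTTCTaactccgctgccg
RPL22L1 (chr3:170870176-170870210, minus strand): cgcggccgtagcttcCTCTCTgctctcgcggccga
RPS27 (chr1:153990747-153990781, plus strand): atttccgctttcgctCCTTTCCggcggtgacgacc
RPS27L (chr15:63157458-63157492, minus strand): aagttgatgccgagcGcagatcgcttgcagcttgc
RPL26L1 (chr5:172958714-172958748, plus strand): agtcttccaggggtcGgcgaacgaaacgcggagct
RPL36AL (chr14:49620607-49620641, minus strand): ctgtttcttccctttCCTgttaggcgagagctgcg
RPL22, RPL22L1 and RPS27 have a TOP start, while RPS27L, RPL26L1 and RPL36AL do not have one at the annotated base. Within 10 bases of the start, RPL36AL has a C followed by at least 4 C or T, and RPS27L and RPL26L1 do not.

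Except for RPL36AL, the copies were below their canonical genes in every library. Per kilobase of median coding transcript, RPL26L1 was at 16.2% to 21.9% of RPL26, RPL22L1 at 12.3% to 23.5% of RPL22, RPL39L at 7.32% to 12.98% of RPL39, RPL7L1 at 5.43% to 8.38% of RPL7, and RPS27L at 0.663% to 1.11% of RPS27. RPL10L, known from the testis, had at most 3 counts in a library, and RPL3L, the form of heart and skeletal muscle, at most 11 counts. RPL36AL was at 80.6 and 98.5 CPM in CRNN, 54.0 and 79.8 in GFP, and 101 and 89.4 in the untreated pair, while RPL36A was at 0.

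RPL39L and RPL22L1 did not follow their partners closely. RPL39L, another gene known from the testis, had 36.6 and 40.9 CPM in CRNN, 39.5 and 26.4 in GFP, and 31.7 and 35.7 in the untreated pair, with CRNN above untreated at a log2 fold change of 0.20 (SE 0.28; edgeR, adjusted p = 0.989). Its share of RPL39 was 12.6% and 12.98% in GFP, 10.1% and 9.47% in CRNN, and 7.32% and 9.72% in untreated cells, so GFP was above both other groups. RPL22L1 had 28.2 and 40.5 CPM in CRNN, 28.6 and 20.9 in GFP, and 42.0 and 25.9 in the untreated pair, and its share of RPL22 was lowest in GFP replicate 2 (12.3%) and untreated replicate 2 (14.3%) and 20.9% to 23.5% in the other 4 libraries. No test was made of these shares.

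**Figure D4:**
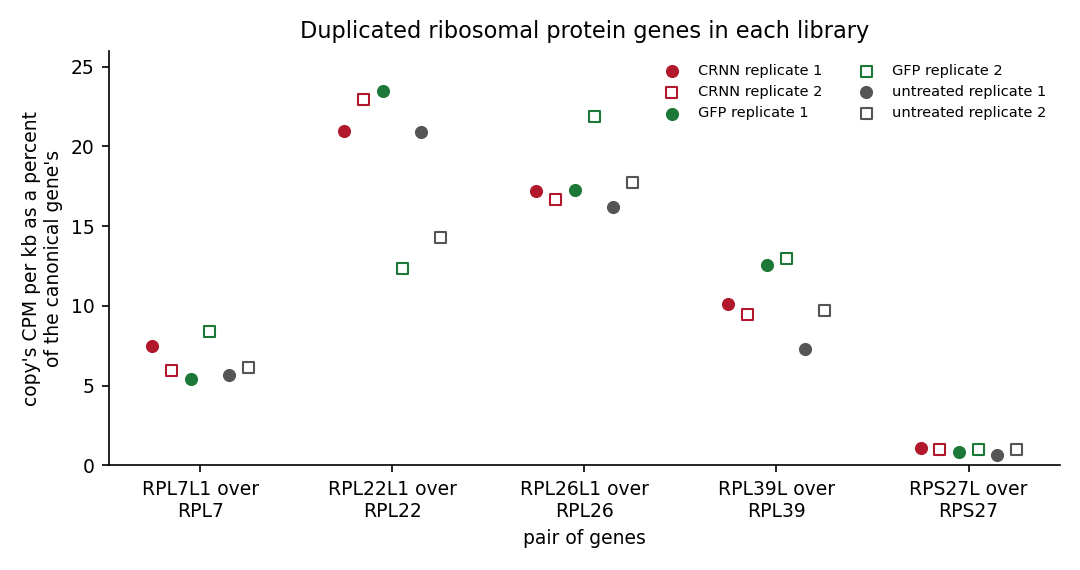
CPM per kb of a copied gene as a percent of its canonical partner, in each library (filled circles replicate 1, open squares replicate 2). RPL39L is at 12.6% and 12.98% of RPL39 in GFP cells and at 7.32% to 10.1% elsewhere.

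Other genes of translation were set beside the members by their counts and medians. RACK1, a scaffold protein of the small subunit that the naming rule leaves out, had 1471 and 1003 CPM in GFP and 1672 and 1455 in untreated cells. The 21 tested elongation factors and other TOP messenger RNAs had medians of 0.15 in CRNN against GFP, -0.20 in CRNN against untreated and -0.31 in GFP against untreated, with 19 negative in GFP against untreated and 10 below it without overlap (47.6%, against 15.5% of all tested genes). The median in CRNN against untreated was -0.06 without untreated replicate 1 and -0.07 without CRNN replicate 1, and the median in CRNN against GFP was 0.04 without CRNN replicate 2 and 0.32 without GFP replicate 2. EEF1A1, which brings aminoacyl-tRNA to the ribosome, had 5168 and 6011 CPM in GFP and 9639 and 7786 in untreated cells. None of these genes passed in any comparison (edgeR).

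Genes for making ribosomes differed in which library stood out. The 44 tested biogenesis factors had medians of 0.07 in CRNN against GFP, -0.44 in CRNN against untreated and -0.50 in GFP against untreated, with 41 and 40 negative in the last 2, and the 15 genes of RNA polymerase I had 0.02, -0.35 and -0.27. For the biogenesis factors the median deviation was 0.63 in untreated replicate 1 and -0.41 to 0.02 in the other 5 libraries, and without untreated replicate 1 the medians against untreated were -0.06 for CRNN and -0.18 for GFP. In CRNN against GFP the medians ranged from -0.11 to 0.29 for the biogenesis factors and from -0.14 to 0.10 for RNA polymerase I with 1 library left out. For RNA polymerase I the median in CRNN against untreated was -0.19 without untreated replicate 1, and that in GFP against untreated was -0.51 without GFP replicate 2. WDR43, of the small-subunit processome, had 69.2 and 95.7 CPM in GFP and 231 and 113 in untreated cells. GFP replicate 2, the lowest library of the ribosomal proteins, was at 0.02 for the biogenesis factors.

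Mitochondrial ribosomal proteins, which belong to a separate ribosome, resembled the members in GFP replicate 2 and not in untreated replicate 1. Their 75 tested genes had medians of 0.25 in CRNN against GFP, 0.00 in CRNN against untreated and -0.22 in GFP against untreated, with median deviations of -0.25 in GFP replicate 2 and 0.07 in untreated replicate 1. The 16 genes of mTOR and TOP control had -0.02, 0.05 and 0.09, the 19 other initiation factors 0.07, -0.35 and -0.33, and the 10 chaperones and disposal factors of ribosomal proteins 0.06, -0.09 and -0.16. Without untreated replicate 1 the initiation factors had -0.05 in CRNN and -0.17 in GFP against untreated, and without GFP replicate 2 they had 0.24 in CRNN against GFP. With 1 library left out, the mitochondrial medians ranged from 0.15 to 0.38, from -0.11 to 0.12 and from -0.31 to -0.20 in the same order of comparisons, and those of the control genes and chaperones lay between -0.25 and 0.15. No gene of these lists passed in any comparison (edgeR).

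**Figure D5:**
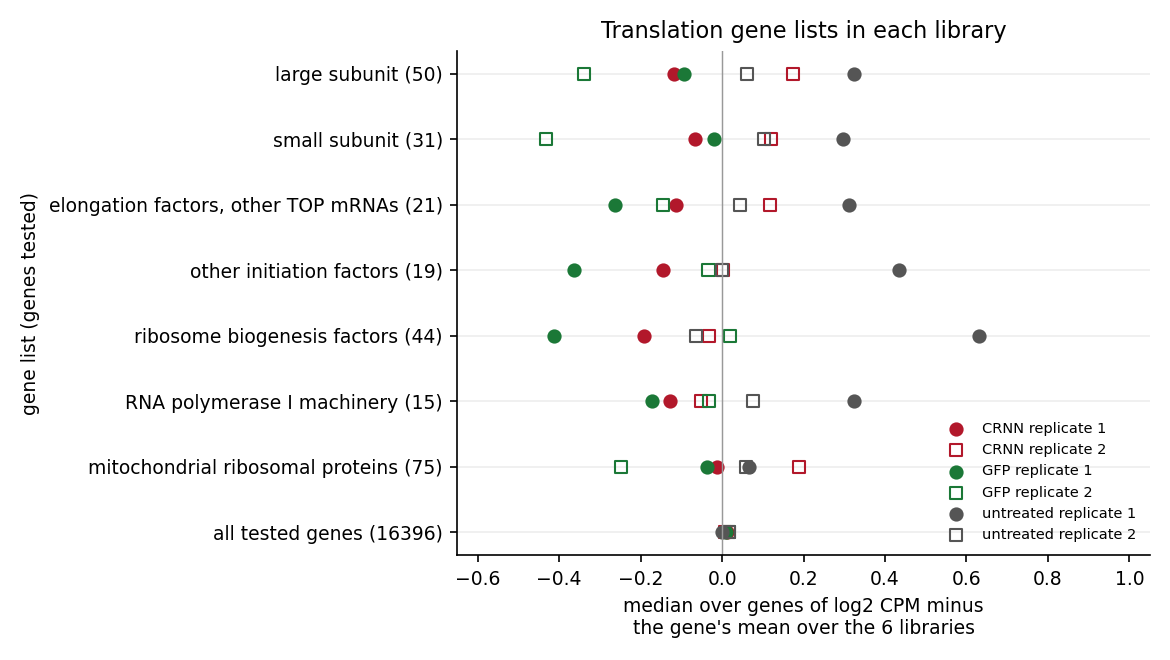
Median deviation of each gene list by library, in log2 CPM from each gene's mean (filled circles replicate 1, open squares replicate 2; number of tested genes in brackets). Large and small subunit genes are lowest in GFP replicate 2, whereas biogenesis factors are lowest in GFP replicate 1 and highest in untreated replicate 1 (0.63).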

How the data were processed

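Stranded libraries of total RNA were sequenced in pairs from 6 cultures labelled with 1 batch, and the authors deposited raw counts of reads for 57820 Ensembl identifiers. Per the submitters' processing notes, STAR 2.6, HTSeq 0.6.1, FastQC 0.11.7, bcl2fastq and edgeR were used, and hg19, GRCh37 and GRCh38 are named with no role. The annotation, the strand setting and the handling of reads that fit several genes are not given in the sources used here. All 6 columns were matched to samples by their names.

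Identifiers were named by GENCODE 44 (51996 of 57820 had a name). The 81 members and all other genes were filtered with edgeR's filterByExpr (minimum count 10, minimum total 15), which kept 16396 genes with 99.9% of the counts, and 1 model was fitted to the 6 libraries in edgeR 4.0.16 under R 4.3.3 (TMM factors, quasi-likelihood F test, two-sided, no covariate, Benjamini-Hochberg over all tested genes, threshold 0.05). The SE of a log2 fold change was obtained from F. CPM use TMM-scaled library sizes, log2 CPM a prior count of 2. With 2 libraries in each group, p-values measure only the spread between these cultures, and 3 counts, taken as the limit of detection, correspond to 0.115 to 0.239 CPM, for counting error only.

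Members, lists and tests were chosen with earlier results of these data known. Named in depth were the members with the 4 smallest p-values each way in each comparison, the 5 highest and lowest per kilobase, copies of canonical genes, RPSA and the stalk genes, and the widest ranges. From each other list up to 4 genes for each comparison could be named. Alternatives were RLE, upper-quartile or library-total scaling, TMM factors without the members, DESeq2 1.42.0, limma-voom (limma 3.58.1), no filter, at least 1 CPM in 2 libraries, only the 2 groups compared, a replicate block, a correction of GC content and length (natural splines of 4 degrees of freedom) and each library left out. The correction with median transcript length, levels by that length, the role groups and the counts of non-overlapping members with libraries left out were chosen after seeing the data. The procedure was tested on simulated counts with larger changes than the members' medians and a smaller spread than these data. That run cannot show whether changes of the members' size would be found. A planned comparison of protein sequences was not run, and coding bases were compared instead. BOP1 and PECAM1 had no value and are not analysed here, and some members of the lists are not reported here.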

Additional observations from a re-analysis of the deposited data

How the results depend on the processing

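No member was called in any comparison under any alternative run. The medians kept their sign under each of them. In the order CRNN to GFP, CRNN to untreated and GFP to untreated, they ranged from 0.11 to 0.45, from -0.31 to -0.03 and from -0.56 to -0.28 over the libraries left out, and were 0.20, -0.08 and -0.32 with upper-quartile scaling, which moved the median of all genes in GFP against untreated from -0.01 to 0.08. Counts of all genes called, 3, 1 and 0, were 34, 152 and 195 without a filter and 21, 7 and 29 by DESeq2. They ranged from 0 to 15, from 1 to 957 and from 0 to 966 with a library left out, 957 and 966 without untreated replicate 2, where the lone library is assumed to vary like the others. In CRNN against GFP 1 gene was called after the GC and length correction, 1 with median transcript length, 1 with that and the replicate block, and 13 from only the 2 groups. The difference between large and small subunit medians ranged from -0.08 to 0.05, from -0.06 to 0.03 and from -0.113 to 0.0438 with a library left out.

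Non-overlapping members numbered 26, 22 and 51, and 27 to 65, 23 to 71 and 52 to 78 with a library left out, where fewer libraries make separation easier. The first was 16 with library totals alone. Among values of named members under alternatives, 430 kept their direction and side of the threshold and 10 changed sign. The highest level per kilobase moved to 1926 with the longest transcript and 2682 with the median one. Signs changed for 5 members. RPS2 and RPL11 in CRNN against GFP ranged from -0.307 to 0.0181 and from -0.41 to 0.24 with a library left out. In CRNN against untreated RPS27L and RPL23A ranged from -0.0281 to 0.406 and from -0.0720 to 0.369. RPS16 in GFP against untreated was -0.0205 without a filter, -0.0134 after the GC and median length correction, -0.0460 with that and the block, and -0.14 to 0.20 with a library left out. The cause was not tested. GFP replicate 2, with 11817105 counts, limits the precision of scarce members.

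The labels do not say that equal replicate numbers pair the libraries. Deviations of same-numbered libraries correlated over 11729 genes at r = 0.26 for CRNN with GFP, -0.07 for CRNN with untreated and 0.19 for GFP with untreated. With a replicate block the members' medians were 0.26, -0.16 and -0.43, no member was called, and 4, 1 and 0 genes were.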

Other observations

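Processed pseudogenes of ribosomal proteins, copies of messenger RNA inserted elsewhere in the genome, form a large family beside the members. The table had 1589 genes annotated as pseudogenes of 78 of the members. Their counts came to 1.63% of the members' own, between 1.52% and 1.799% in a library, with 1.52% in both untreated libraries, 1.799% and 1.63% in CRNN and 1.79% and 1.60% in GFP. The share was not even between members. Over the 6 libraries, pseudogenes of RPL17 had 995 counts against 997 of RPL17 itself. Those of RPL36A had 1078 against 0. Across 83 members, Spearman's rho between the number of pseudogenes and the mean level per kilobase of median coding transcript was 0.12, given as a description, since members share libraries and reads can fit both a gene and its pseudogene.

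Coding length went with the members' levels in some libraries. Over the 81 tested members, Spearman's rho between coding length and the deviation of the library was -0.37 and -0.45 in CRNN replicates 1 and 2, 0.04 and 0.20 in GFP, and 0.19 and 0.08 in the untreated pair. Over 10741 tested coding genes it was -0.04 and -0.36 in CRNN, 0.07 and 0.38 in GFP, and -0.09 and -0.05 in the untreated pair. The only bound on the level of these genes was an average log2 CPM no lower than 1, so they were not matched to the members.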
